A study of Homo sapiens with 9 samples.

Results

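The species of 30 to 42 nt were the longest small RNAs listed in the deposited profile of K562 cells, an established human chronic myeloid leukemia line with erythroid features. They were taken as every alignment, on any chromosome and either strand, whose end minus start was 30 to 42 nt, and 32,316 of 3,688,019 listed alignments (0.876%) met this rule. Small RNA of untreated K562 cells from 3 biological replicates had been sequenced after gel selection of inserts of 20 to 40 nt, and the authors pooled the replicates into 1 table. The series also held 6 libraries of HEK293 cells in 3 groups (sncRNA vectors plus Dox, sncRNA vectors no Dox and control vectors no Dox), and they were not used here. Because the K562 replicates were pooled, no spread between replicates could be given and no test between samples was made. The intervals given are 95% Wilson intervals, and they cover counting error only, since reads without molecular identifiers are not independent molecules.

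Several kinds of longer RNA are known to leave stable pieces in this size range. A tRNA is transcribed by RNA polymerase III as a precursor with a leader before and a trailer after its cloverleaf fold, and transcription stops at a run of T. RNase Z cuts the precursor behind the fold and frees the trailer, and cleavage in the anticodon loop of the mature tRNA, known from stressed cells, gives 5′ and 3′ tiRNAs, the products long enough to span one side of the tRNA. C/D box snoRNAs guide 2′-O-methylation of rRNA, carry box C near their 5′ end and box D near their 3′ end, and are mostly cut out of introns of host genes. Vault RNAs, RNase MRP RNA, rRNAs and mitochondrial transcripts are other abundant structured RNAs, and piRNAs, which are germline small RNAs, end at the lower border of this range.

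A few sequences carried most of what is described here, and they are shown first, each 5′ to 3′ as DNA with its position on GRCh37 (hg19), counted from 1. The trailers come first because they held the most reads. Capitals mark the T run at the 3′ end.
trailer of tRNA-Arg-CCT, chr17:73030495-73030525(-): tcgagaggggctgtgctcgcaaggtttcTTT
trailer of tRNA-Gly-CCC, chr1:16872402-16872433(-): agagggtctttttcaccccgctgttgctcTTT
trailer of tRNA-Gly-CCC, chr1:17188487-17188518(+): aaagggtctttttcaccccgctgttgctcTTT
trailer of tRNA-His-GTG, chr15:45493421-45493454(+): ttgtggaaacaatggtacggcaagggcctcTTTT
trailer of tRNA-Thr-CGT, chr16:14379823-14379856(+): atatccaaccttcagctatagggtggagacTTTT
trailer of tRNA-His-GTG, chr15:45492575-45492610(-): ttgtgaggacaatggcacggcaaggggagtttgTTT
trailer of tRNA-Arg-TCG, chr6:26323120-26323149(+): ttgagatactgactagtctggtgttaTTTT
trailer of tRNA-Gln-CTG, chr1:145963376-145963407(+): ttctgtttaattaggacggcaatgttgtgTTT
For the first of these, the cloverleaf fold of tRNA-Arg-CCT is shown with the trailer behind it in capitals, because the trailer began at the base right after the fold.
fold of tRNA-Arg-CCT with its trailer, chr17:73030495-73030598(-): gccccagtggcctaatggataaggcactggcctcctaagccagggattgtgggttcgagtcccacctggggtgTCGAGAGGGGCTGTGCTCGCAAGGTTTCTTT

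The next sequences are loci outside annotated small RNA genes that held the letters of a box C core (TGATG) and of a box D (CTGA), in capitals. Only these letters were matched, so a box D was not told apart from an internal copy of it. The loci are shown because they belong to the largest group of reads outside annotated small RNA genes. The annotation used was GENCODE v44 lifted to GRCh37. This annotation lacks snoRNA genes that RefSeq lists in some hosts, such as GAS5 and SNHG5. Of the 43,944 reads of this group, 29,962 lay in such hosts or in near matches to annotated snoRNAs.
GAS5 locus, chr1:173835135-173835165(-): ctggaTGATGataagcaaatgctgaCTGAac
SNHG5 locus, chr6:86387056-86387085(-): atctgTGATGatcttatcccgaacCTGAac
GAS5 locus, chr1:173836816-173836845(-): gagtaaTGATGaatgccaaccgctCTGAtg
MRPS22 locus, chr3:139067228-139067257(+): agagaTGATGtgacctggctgtctCTGAtg
ZMYM2 locus, chr13:20567801-20567831(+): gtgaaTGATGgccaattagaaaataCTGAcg
PFKL locus, chr21:45744010-45744041(+): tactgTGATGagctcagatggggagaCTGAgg
RPL11 locus, chr1:24019690-24019723(+): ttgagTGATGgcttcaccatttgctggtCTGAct
CTPS1 locus, chr1:41465808-41465837(+): aatctgTGATGatagaaattggatCTGAgg
NOP56 locus, chr20:2637585-2637616(+): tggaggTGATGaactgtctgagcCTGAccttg
HPS4 locus, chr22:26854296-26854333(-): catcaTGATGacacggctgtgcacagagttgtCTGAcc
BRWD3 locus, chrX:79955305-79955338(-): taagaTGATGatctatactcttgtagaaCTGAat
Annotated C/D box snoRNAs cut at the same length are shown for comparison, with the same capitals.
SNORD12C, chr20:47895483-47895512(+): gtaaaTGATGacttcacttttttccccatc
SNORD60, chr16:2205076-2205105(-): gtctgTGATGaattgctttgacttCTGAca
SNORD70, chr2:203141163-203141192(+): gtcaaTGATGtattcttcttggaaCTGAat
SNORD119, chr20:2443652-2443681(-): attaaTGATGagatataaccttgaCTGAag
SNORD2, chr3:186502587-186502620(+): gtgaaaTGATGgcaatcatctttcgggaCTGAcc
SNORD45A, chr1:76253575-76253606(+): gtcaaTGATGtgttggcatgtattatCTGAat
SCARNA9, chr11:93454964-93454993(+): ggcaaTGATGaaaaggttttactaCTGAtc
The sequence shared by both 5′ tiRNA loci is shown with its bases of the anticodon arm in capitals.
5′ tiRNA of tRNA-Gly-CCC, chr16:686775-686806(-): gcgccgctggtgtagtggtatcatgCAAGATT

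The 32,316 alignments joined into 19,738 loci, a locus being a run of members that overlap or touch on 1 strand. The reads below are recovered reads. The deposited read numbers were inferred to be the reads multiplied by the number of near neighbours of an alignment (same strand, ends shifted by at most 3 nt in all, itself included), and dividing by that number gave whole reads for all 1,246,133 alignments with a neighbour. The members held 283,712 recovered reads, 0.595% (0.593 to 0.597) of 47,670,688. The 25 to 29 nt species held 1,682,376 reads (3.53%) and the 18 to 24 nt species 34,071,307 reads (71.5%). Most members were seen once, since 24,828 alignments (76.8%) and 16,135 loci (81.7%) rested on 1 read. At the other end, 701 loci had at least 10 reads and 172 had at least 100. The reads were concentrated in few loci. The locus of most reads held 24.7% of them, the 10 highest 52.4%, the 20 highest 60.9% and the 100 highest 81.2%. The loci were spread evenly over the strands, with 9811 (49.7%) on the plus strand. The deposited RPKM, which carries the neighbour factor, was highest for the trailers of tRNA-Arg-CCT (559,092) and tRNA-Gly-CCC (110,502), the GAS5 locus between them (160,517) and SNORD15A (68,960).

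The number of alignments fell steadily with length, with 9947 at 30 nt, 7115 at 31 nt, 4871 at 32 nt and 262 at 42 nt, and no species longer than 42 nt was listed. The reads did not fall steadily. They numbered 71,891 at 30 nt, 104,463 at 31 nt, 48,985 at 32 nt, 23,062 at 33 nt and 14,598 at 34 nt, so that 79.4% of the reads lay at 30 to 32 nt. Just outside the rule, 29 nt held 14,108 alignments and 149,587 reads. The peak at 31 nt was made by 1 RNA, because a single alignment, the trailer of tRNA-Arg-CCT, gave 52,131 (49.9%) of the reads of that length. Without its locus, 31 nt held 51,741 reads and 30 nt held 64,658, and the reads then fell at each step up to 37 nt. At 32 nt the trailer of tRNA-Gly-CCC on chromosome 1 gave 12,763 reads (26.1%). A small rise stood at 38 nt, with 2508 reads against 2129 at 37 nt, and the highest alignment there was SNORD38A with 389 reads. The 1245 reads at 42 nt, against 728 at 41 nt, included 328 reads of 1 alignment in a lncRNA exon.

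The makeup changed along the length axis. Trailers held 53.6% of the reads at 31 nt and 57.9% at 32 nt, but 4.26% at 42 nt. Annotated snoRNAs and scaRNAs (Cajal body relatives of snoRNAs) held 35.8% of the reads at 30 nt and 37.9% at 42 nt, with 9.48% at 32 nt. Loci outside annotated small RNA genes with both boxes held between 4.02% of the reads, at 42 nt, and 28.98%, at 41 nt. The first base was T in 40.7% of the reads (40.5 to 40.9) and in 26.2% of the alignments. The 25 to 29 nt species began with T in 52.2% of the reads and the 18 to 24 nt species in 62.1%. Without the 10 loci of most reads, T began 28.7% of the reads. The other bases began 28.2% (A), 24.7% (C) and 20.9% (G) of the alignments.

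Most reads lay in structural RNAs, although few loci did. Loci in annotated small RNA genes, at tRNA folds, or identical to the mitochondrial genome or to the rDNA contig of the reference numbered 796 (4.03%) and held 191,921 reads, 67.6% of the total. With loci of up to 2 mismatches to mitochondrial or rDNA sequence and loci with both boxes added, they numbered 2542 (12.9%) with 251,011 reads (88.5%). The other 17,196 loci (87.1%) held 32,701 reads (11.5%), and 14,939 of them were single reads. This remainder was not free of structural RNA. It included 6859 reads in lncRNA exons of snoRNA host genes, and its highest locus, with 2369 reads, differed by 1 base from an annotated snoRNA. Of the 20 loci of most reads, 7 were annotated snoRNAs, 6 were tRNA trailers and 4 held both boxes. Another 2 matched mitochondrial sequence with up to 2 mismatches, and 1 lay in a GAS5 exon with a box C core alone.

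The tRNA trailers were the largest kind by reads, with 116,582 (41.1%) in 80 loci, behind folds of 38 anticodons and all 20 amino acids. The reads were uneven among them. The trailer of tRNA-Arg-CCT held 70,045 reads (60.1% of trailer reads) in 1 locus, those of tRNA-Gly-CCC 26,924 (23.1%) in 3 loci and those of tRNA-His-GTG 10,555 (9.05%) in 8 loci. Trailers of tRNA-Arg-TCG followed with 2684 reads, tRNA-Thr-CGT with 2342 and tRNA-Gln-CTG with 2176, and 18 of the 80 loci were single reads. Without the locus of tRNA-Arg-CCT, trailers made up 21.8% of the members' reads.

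The trailers had sharp borders. All 80 began at the base after the fold (52 loci, 110,033 reads) or 1 base later (28 loci, 6549 reads). At their other end, 46 loci (57.5%), which held 99.2% of the trailer reads, ended in at least 3 T. Among the 19,658 other loci, 802 (4.08%) did so. Where a trailer lacked the T run it was low, and the highest of these, behind a fold of tRNA-Asn-GTT, had 249 reads. The T run is the stop signal of RNA polymerase III, so these loci spanned the precursor from behind the fold to the T run, as shown by the capitals in the sequences above. The trailers were called from the position of the fold alone, without use of the T run. The call required a 5′ end within 3 nt of the base after the fold, so the closeness of the 5′ border to the fold was partly set by it.

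The 2 ends differed in how fixed they were. Reads sharing an end, here and below, are those with the same end as the alignment of highest RPKM in the locus. That end need not be the most common one. Among the 21 trailer loci with 100 reads or more, the median share of the 30 to 42 nt reads was 97.8% at the 5′ end. At the 3′ end it was 65.5%. At the tRNA-Arg-CCT locus 94.7% shared the 5′ end and 78.8% the 3′ end. At the tRNA-Gly-CCC locus of 20,325 reads these shares were 97.7% and 64.1%. Reads of other lengths lay at the same places. Of the 79,631 reads of all lengths at the tRNA-Arg-CCT locus, 88.0% were 30 to 42 nt and 92.4% shared its 5′ end. The tRNA-Arg-TCG trailer of 1871 reads, by contrast, had 8771 reads of all lengths, with 29 nt the most common, so that 21.3% fell within the range described here.

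Pieces of the tRNA folds themselves were scarce. Only 2 loci were 5′ tiRNAs (from the first base of the fold into the anticodon arm), both of tRNA-Gly-CCC, at chr16:686775-686806(-) with 87 reads and chr2:70476162-70476193(-) with 71 reads, together 0.0557% of the reads. They had the same 32 nt sequence, which was present in the genome at 2 places, so the reads could not be given to either. It began at the first base of the fold and ran 7 bases into the anticodon arm, ending right before the anticodon. No locus was a 3′ tiRNA or another piece of a fold by its highest alignment, which by the limit of 3 counts allows up to 0.0152% of the 19,738 loci, although 4 single alignments with 6 reads had the ends of a 3′ tiRNA. Leaders before the fold gave 20 loci and 41 reads, the highest 6 reads before a fold of tRNA-Thr-AGT. Trailers made up 99.8% of the reads on or beside folds at 30 to 42 nt, 99.6% at 25 to 29 nt and 97.3% at 18 to 24 nt. Of all reads in each class they were 41.0%, 13.2% and 11.5%.

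The authors described a filter for uniquely mapping reads, although 2912 loci of 30 to 42 nt with 27,460 reads had a sequence found at 2 or more places in the genome. Of the 400 folds found in the genome, the first 30 bases occurred once in 106 (26.5%), with a median of 5 copies, and the last 30 bases in 139 (34.8%). The 30 bases behind the fold occurred once in 353 (88.2%). None of the 106 folds with unique first bases had a 5′ tiRNA alignment of 30 to 42 nt, while 80 of the 353 (22.7%) had a trailer alignment. The part that such a filter had in the number of tiRNA reads was not tested.

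**Figure D1:**
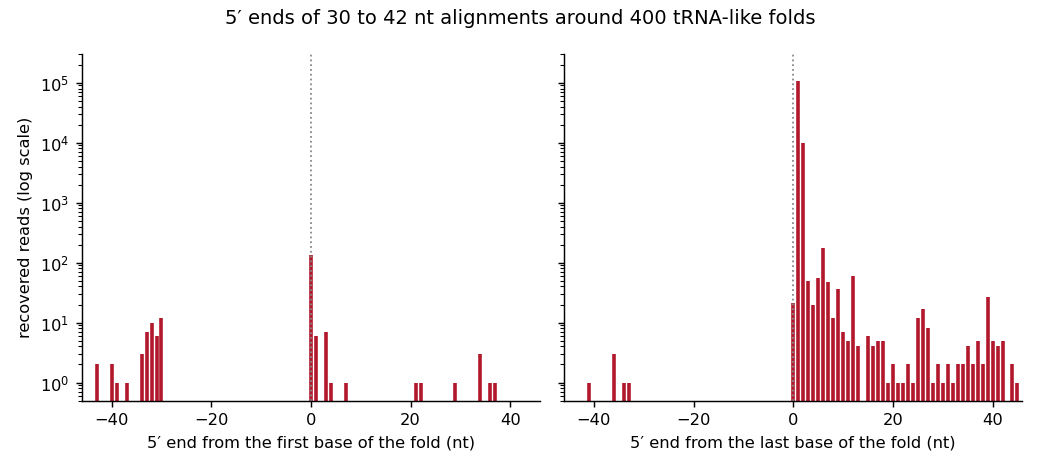
Recovered reads of 30 to 42 nt alignments on and around the 400 tRNA folds (log axis), by the distance in nt of their 5′ end from the first base of the fold (one panel) and from its last base (the other panel). The 5′ ends gathered at the base after the fold and the next base, where all 80 trailer loci began.

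Annotated snoRNAs and scaRNAs came next, with 301 loci and 56,214 reads (19.8%). C/D box genes (SNORD names) accounted for 93.8% of these reads from 133 genes, H/ACA box genes (SNORA), which guide pseudouridylation, for 1.05% from 60 genes, and scaRNAs for 4.31% from 12 genes. SNORD15A, hosted by RPS3, led with 11,870 reads in 3 loci, followed by SNORD70 in NOP58 introns with 4506 in 2 loci, SNORD12C in ZFAS1 with 3465, SNORD60 in SNHG19 with 3215 and SNORD119 in an SNRPB intron with 2741. SCARNA9 had 2085 reads, of which 1644 lay in 1 locus with both boxes. The U3 genes (SNORD3A, SNORD3B-1, SNORD3B-2 and SNORD3C), whose RNA acts in rRNA processing, had 14 reads in 8 loci, and U8 had none.

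The pieces came mainly from the 5′ side of the snoRNA. Loci beginning within 10 nt of the annotated 5′ end held 76.4% of the snoRNA reads in 138 loci, and loci ending within 10 nt of the 3′ end held 18.7% in 129 loci. Many C/D box snoRNAs also hold an internal box D′, and many of the pieces ended shortly behind a CTGA. Both boxes stood in 61 of 176 loci of SNORD genes (34.7%), as in SNORD60, SNORD70, SNORD119, SNORD2 and SNORD45A above, while the SNORD12C locus had the box C core alone. As these loci ended 33 to 52 nt before the annotated 3′ end, the CTGA in them was not the box D at the end of the snoRNA. The 3′ ends were the more fixed side. At SNORD12C 53.0% of the reads shared the 5′ end and 98.4% the 3′ end, at SNORD119 93.8% and 96.99%, and over the 63 loci of at least 100 reads the medians were 70.2% and 81.4%.

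Outside annotated small RNA genes (GENCODE v44 lifted to GRCh37), 1156 of 19,229 loci (6.01%, 5.68 to 6.36) had the letters TGATG within their first 14 bases and, after them, CTGA within their last 10. This search was chosen after the sequences of the abundant loci had been seen. It matched letters only, so a box D was not told apart from an internal box D′. It was made on both strands, and on the opposite strand of the same loci 5 of 19,229 (0.026%) had both. Among shorter loci outside annotated small RNA genes, both boxes stood in 2463 of 96,973 (2.54%) at 25 to 29 nt and in 3845 of 806,787 (0.477%) at 18 to 24 nt, where the letters have less room. The 1156 loci held 43,944 reads, 15.5% of the members' reads. Of the reads outside annotated small RNA genes, loci with both boxes held 41.7% at 30 to 42 nt and 44.1% at 25 to 29 nt. At 18 to 24 nt they held 1.61%. By reads, both boxes were thus not particular to 30 to 42 nt. By read number, both boxes stood in 3.71% of the loci of 1 read, 17.4% of those of at least 2, 29.9% of those of at least 10 (150 of 502) and 33.3% of those of at least 100 (27 of 81).

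The boxes lay at nearly fixed places. Box C began at base 6 in 586 loci and at base 7 in 424, together 87.4%. Box D was followed by exactly 2 bases in 933 loci (80.7%), and 827 loci (71.5%) met both positions. The search windows allowed other places, so these positions were not set by the rule. The full box C of 7 letters (ATGATGA or GTGATGA) stood in 557 loci (48.2%). The median length was 31 nt, and 1048 loci (90.7%) had 1 copy in the genome.

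The reads with both boxes were again concentrated. The GAS5 locus at chr1:173835135-173835165(-) held 21,331 reads, the second most of all loci. GAS5 is a lncRNA whose introns carry many C/D box snoRNAs. Its 2 further loci of at least 100 reads with both boxes had 2502 and 357 reads, and a locus in SNHG5, another snoRNA host, had 2684. The annotation used here lacks some snoRNA genes that RefSeq lists inside these hosts (SNORD44, SNORD47, SNORD76 and others in GAS5, and SNORD50A and SNORD50B in SNHG5). Of the 1156 loci, 55 with 29,962 reads lay in such hosts or differed by at most 2 bases from an annotated snoRNA, and 1101 loci with 13,982 reads (4.93%) did neither.

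Loci of the second kind lay mostly in introns of protein-coding genes. MRPS22, which encodes a mitoribosomal protein, held 2270 reads, of which 91.3% shared the 5′ end and 98.9% the 3′ end. PFKL, which encodes a phosphofructokinase, held 1343 reads, RPL11, a ribosomal protein gene, 978, CTPS1, a CTP synthase gene, 626, and HPS4 and BRWD3 561 and 476. The NOP56 intron locus, with 568 reads, lay in a host of SNORD56 and SNORD57 by RefSeq. The ZMYM2 locus of 1772 reads lay in annotated coding sequence, and RefSeq lists a snoRNA, LOC124903265, in that host. In all, 795 loci with both boxes (68.8%) lay in mRNA introns of 726 genes or sets of overlapping genes, against 34.4% of the loci without both boxes. A further 104 were intergenic, 72 in lncRNA introns, 67 in 3′ UTRs, 43 in coding sequence, 16 in lncRNA exons and 13 in 5′ UTRs.

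The share of 30 to 42 nt reads at the loci with both boxes varied widely. Over the 27 such loci with 100 reads or more it ran from 1.05% to 99.5%, with over 50% in 17 and less in 10. In the median locus 85.9% of the reads of all lengths were 30 to 42 nt, compared with 62.5% for trailers, 33.2% for annotated snoRNAs and 12.1% for mitochondrial matches. At MRPS22 it was 98.9% and at RPL11 99.5%. Loci made mostly of shorter reads included the highest GAS5 locus, with 22.4% of 95,367 reads, the next GAS5 locus with 15.1% of 16,413, NOP56 with 4.87% of 11,664, TNIP1 with 5.38% of 2879 and an intergenic locus on chromosome 12 with 1.05% of 16,305. The medians of reads sharing an end were 74.1% at the 5′ end and 92.2% at the 3′ end.

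Of 59 species of 30 to 42 nt that had been taken into the pooled overexpression assay, 47 were listed in this table at identical coordinates and 12 were not. Both boxes stood in 31 of the 47 (66.0%, 51.7 to 77.8), and 17 had at least 10 reads at those coordinates. Over all loci outside annotated small RNA genes the share was 6.01%. It was 11.3% over those in mRNA introns and 17.4% over those of at least 2 reads. The assay species were picked by the authors within protein-coding genes and not at random, and they were not matched to these loci. The highest were the ZMYM2 species with 1091 reads and the BRWD3 species with 414. Others with both boxes lay in introns of GRAMD4 (103 reads), COG1 (43), MED13L (39) and FBXW11 (33), and in NOL6 coding sequence (27). The COPA intron species (50 reads) lacked the pair of boxes.

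Mitochondrial sequence was listed only through nuclear positions, since the table covered 24 nuclear chromosomes and no mitochondrial one. Loci identical to the mitochondrial genome numbered 242 with 13,387 reads (4.72%). With up to 2 mismatches they were 557 with 27,102 reads (9.55%), and nuclear copies and mitochondrial RNA cannot be told apart where the sequence is identical. By gene, MT-TE (tRNA for glutamate) matched 4900 reads, MT-RNR1 and MT-RNR2 (the small and large mitochondrial rRNAs) 4646 in 65 loci and 2982 in 95, the control region 4504, and MT-TV (tRNA for valine) 1815. The 2 highest loci carried mismatches to the reference mitochondrial genome, which are in capitals in the sequences of the following lines. Whether their reads came from nuclear copies or from mitochondrial RNA was not tested.
MT-TE match, chr11:122874342-122874374(+): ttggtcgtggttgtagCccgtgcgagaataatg
control region match, chr5:79948121-79948152(+): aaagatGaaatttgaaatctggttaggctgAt
MT-TV match, chr7:145694456-145694486(+): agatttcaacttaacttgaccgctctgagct
By the share of reads at the ends of the alignment of highest RPKM, these loci were less fixed than trailers. Over the 23 identical loci of at least 100 reads the medians were 42.1% for the 5′ end and 30.8% for the 3′ end. At the MT-TE match, 22.7% of 4795 reads shared the 5′ end and 49.3% the 3′ end, and 19.2% of the 25,026 reads of all lengths were 30 to 42 nt.

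Other annotated small RNAs gave 128 loci and 5459 reads (1.92%). The vault RNAs, the RNA part of a large cytoplasmic particle, had 1361 reads in 7 loci, with 746 in VTRNA1-2, 334 in VTRNA2-1 and 223 in VTRNA1-1. RMRP, the RNA of RNase MRP, had 1009 reads, of which 984 lay at its 5′ end. Copies of 5.8S and 5S rRNA had 1441 reads in 8 loci, led by RNA5-8SP6 with 860 and 553 reads in 2 loci. Loci identical to the rDNA contig added 279 reads in 45 loci, and those with up to 2 mismatches were 320 with 1710 reads. The spliceosomal snRNAs gave 21 reads in 8 loci, with RNU4ATAC highest at 6, and 7SL gave 4 reads in 1 locus. No locus lay in 7SK, Y RNA, RNase P RNA or telomerase RNA genes. The part that the filter for uniquely mapping reads had in these low counts was not tested.

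The 78 miRNA gene loci held 1424 reads. By their alignment of highest RPKM, 40 of these loci contained a whole mature miRNA. Of them 30, with 1295 reads in all, began at its first base and ran 5 to 20 nt beyond its end. In 24 of the 30 it was the 5p arm. MIR223, a myeloid miRNA gene, held 985 reads in its highest locus. The alignment of highest RPKM there, with 878 reads, began with miR-223-5p and went 8 bases further, as shown here with the mature miRNA in capitals.
MIR223, chrX:65238737-65238766(+): CGTGTATTTGACAAGCTGAGTTggacactc
The alignments of highest RPKM at MIR182 (84 reads in the locus), MIR126 (80), MIR146B (48) and MIR21 (35) also began with the mature miRNA and ran past its end. At the MIR223 locus, 3.25% of the 30,195 reads of all lengths were 30 to 42 nt, and 98.8% of these shared the 5′ end.

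Fragments of mRNAs were many in loci and few in reads. Leaving out all kinds above, 5061 loci (25.6%) lay in mRNA exons of 3598 genes on the same strand and held 6247 reads (2.202%). They comprised 2431 loci in coding sequence, 1370 in 5′ UTRs and 1260 in 3′ UTRs. Of these loci, 4328 (85.5%) were single reads and 10 had at least 10 reads. Genes with many reads included the linker histone genes H1-2 and H1-4 with 31 and 28, TPR, a nuclear pore gene, with 23, H2AC12 with 22, IMPDH1, an enzyme gene of guanine nucleotide synthesis, with 22, and MYL6, a myosin light chain gene, with 22. They were followed by SEC24C, a gene of vesicle coat assembly, with 21, the ferritin light chain gene FTL with 20 and ZC3HAV1 with 16. The FTL reads were spread over 7 loci. Within 3 nt of an annotated mRNA start 154 loci began, 147 of them among the 1370 loci of 5′ UTRs.

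Exon loci were also counted over lists of genes. Over all annotated protein-coding genes, 3660 of 20,149 (18.2%) had one, and the lists below were not matched to these on length or expression. Ribosomal protein genes had exon loci in 65 of 86 genes with 194 reads in 139 loci, translation factor genes in 8 of 10 with 54 reads, replication histone genes in 49 of 72 with 229 reads, and a list of heat shock and other abundant mRNAs in 13 of 13 with 80 reads. The single genes had 15 reads (PABPC1), 14 (RPLP0), 13 (EEF1A1 and EEF2 each), 12 (RPS15A) and 10 (HSP90AB1). Erythroid markers, which K562 cells express, had loci in 6 of 15 genes with 19 reads. The 17 lymphoid, myeloid, hepatic, neuronal and kidney markers had none. The nuclear lncRNAs MALAT1 and NEAT1 had 58 and 11 reads in 33 and 10 loci. Exons of a short list of snoRNA host genes (GAS5, SNHG1, SNHG5, SNHG6, SNHG8, ZFAS1 and EPB41L4A-AS1) held 32,755 reads in 38 loci, of which GAS5 had 27,514, SNHG5 2843 and SNHG1 2347, and these include the loci with both boxes.

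The loci outside annotated small RNA genes were set against the gene elements of the genome by an odds ratio. It was the share of locus length assigned to an element divided by that element’s share of both genome strands. Each locus was assigned whole to the highest-ranked element that any of its bases touched. The ranking began with 5′ UTRs, followed by 3′ UTRs, coding sequence, lncRNA exons and mRNA introns. For 30 to 42 nt loci the odds ratio was 40.3 (38.3 to 42.4) in 5′ UTRs, compared with 36.6 (35.7 to 37.4) at 25 to 29 nt and 16.1 (15.9 to 16.3) at 18 to 24 nt. In coding sequence it was 22.5 (21.7 to 23.4) at 30 to 42 nt, 24.7 (24.4 to 25.1) at 25 to 29 nt and 10.8 (10.8 to 10.9) at 18 to 24 nt. In 3′ UTRs it was 9.77 (9.28 to 10.3) at 30 to 42 nt, against 13.5 (13.2 to 13.7) at 25 to 29 nt and 7.24 (7.18 to 7.31) at 18 to 24 nt. Exons of all 3 kinds were thus overrepresented at each length, and by intervals the 30 to 42 nt loci stood above the 18 to 24 nt loci in each. Longer loci touch an exon more readily under this assignment, and the part of this in the difference was not tested.

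Among other elements, lncRNA exons had an odds ratio of 6.27 at 30 to 42 nt, 5.32 at 25 to 29 nt and 2.84 at 18 to 24 nt. Introns of mRNAs held the most loci, 7005 (36.4%), at 1.76, compared with 1.56 and 1.21 at the shorter lengths. Loci were sparse between genes (0.40, against 0.41 and 0.74) and antisense to mRNA introns (0.29, against 0.34 and 0.71). Weighted by reads, the 5′ UTR and coding sequence values at 30 to 42 nt were 10.5 and 8.14, and among loci of at least 10 reads they were 13.4 and 2.15, so the coding sequence value rested on loci of few reads. Of the 4904 reads in coding sequence, 1913 (39.0%) lay in loci with both boxes, 1772 of them in the ZMYM2 locus. The 3′ UTR value was 2.98 by reads and 3.17 at 10 reads or more. With mitochondrial and rDNA matches and loci with both boxes left out, 0 loci of 3′ UTRs had at least 10 reads. The 3′ UTR value at 10 reads or more thus rested on those kinds. The lncRNA exon values rose instead, to 54.5 by reads and 14.9 at 10 reads or more. Of the 37,334 reads in lncRNA exons, 27,417 (73.4%) lay in loci with both boxes, with 21,331 in the highest GAS5 locus. The value by reads thus rested mostly on a few snoRNA host genes. The 1 kb upstream of genes, at 2.92 over loci, fell below 1 by reads (0.86).

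Outside exons and the kinds above, single loci were low. The introns of mRNAs held 6027 such loci with 8879 reads and the intergenic space 3069 with 5555 reads, the highest locus having 300 and 131 reads. Most loci of 30 to 42 nt had 1 place in the genome (85.2%, with 90.3% of the reads), and 780 (3.95%) had 10 or more, with 0.556% of the reads. Exons of lncRNAs stood out, with 752 loci and 8442 reads, of which 76 loci in any gene named GAS5, SNHG, ZFAS1, EPB41L4A-AS1 or TAF1D held 6859. The highest of these was the GAS5 locus at chr1:173833327-173833356(-) with 2369 reads, which had the box C core at base 6 without box D and differed by 1 base from a stretch of a gene annotated as SNORD81.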

How the data were processed

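Small RNA of 3 K562 replicates was sequenced after gel selection of 20 to 40 nt inserts (50 nt single-end reads). The authors filtered the reads, aligned them to GRCh37 (hg19) with Bowtie2 2.2.9, kept reads they described as uniquely mapping and pooled the replicates. The deposited table gave, for each alignment, a read count and an RPKM value, which the authors computed per kb of alignment length and scaled to a fixed read total. The deposited counts sum to 718,601,614, and each was inferred from the table to be multiplied by the number of near neighbours. Dividing gave 47,670,688 recovered reads. RPKM was used to choose the highest alignment of a locus only.

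Members (30 to 42 nt) that overlapped or touched on 1 strand were joined into loci, classified by their highest alignment. Small RNA genes and elements were taken from GENCODE v44 lifted to GRCh37, names of further snoRNA genes from RefSeq (GRCh38.p14, names only), and mature miRNAs from the RefSeq table. A scan for cloverleaf folds with a score of at least 24 gave 400 folds in the genome and 5 in the reversed sequence. A tiRNA, leader or trailer had to begin or end within 3 nt of the fold's ends or in its anticodon arm. Loci were compared with the mitochondrial genome and rDNA contig exactly and with up to 2 mismatches. All steps were run in Python 3.11.15 with numpy 2.4.6, pandas 2.3.3, numba 0.67.0 and pysam 0.24.0, and were tested on simulated data.

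The named loci and genes are the 20 loci of most reads, the 10 alignments of highest RPKM, the 3 highest loci of each class, the 10 protein-coding genes of most exon reads, the assay species and the list genes of at least 10 reads, with further loci named after their values were seen. A result the rule would name is not reported here. Members and gene lists were chosen with earlier results of these data known. No test between samples was possible on a pooled table.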

Additional observations from a re-analysis of the deposited data

How the results depend on the processing

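No paired analysis was possible because the deposited table pools the replicates, and no replicate could be left out. The 19,738 loci became 2889 and 453 with alignments of at least 2 and 10 reads, and 12,045 when clusters were made from alignments of all lengths. Of all reads, 0.595% were members, against 0.543% by deposited counts, 0.576% and 0.566% at the 2 read minimums, 0.444% at 31 to 42 nt and 0.591% at 30 to 40 nt. The peak moved from 31 to 30 nt with each alignment counted once and without the highest locus or the 10 highest loci. The share of the 10 highest loci was 66.8% by deposited counts and 56.6% by the highest alignment of each locus. The 5′ UTR odds ratio was 34.4 with coding sequence ranked before UTRs, 10.5 by reads, 13.4 at 10 reads or more and 42.5 without loci of both boxes. The coding sequence value was 25.3, 8.14, 2.15 and 23.6 under the same choices and 20.9 at 2 reads or more. The mRNA intron value was 1.16 by reads, 1.86 and 1.91 at the 2 minimums and 1.65 without loci of both boxes, and the 1 kb upstream value turned below 1 by reads (0.86).

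Structural RNAs held 73.5% of the reads and 44.7% of the loci at 10 reads or more, 73.0% and 7.03% with up to 2 mismatches, and 83.1% and 9.89% with loci of both boxes. tiRNAs were 0.0101% with each locus counted once and 0.0269% by deposited counts. Trailers were 38.8% with identical ends required, 0.405% with each locus counted once, 47.6% by deposited counts and 21.8% without the highest locus. T as first base was 26.2% with each alignment counted once and 28.7% without the 10 highest loci. Both boxes stood in 2.90% of loci with the box C of 7 letters, 17.4% at 2 reads or more and 29.9% at 10 reads or more, and held 11.99% of the reads with the 7 letters, 8.62% without the highest GAS5 locus and 4.93% without hosts of snoRNAs listed by RefSeq alone and near matches. The settings on both boxes, mismatches, and single loci left out were chosen after seeing the data. The causes of these shifts were not tested beyond what each setting leaves out. Single-read loci limit every share of loci.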
